A study of Mus musculus with 12 samples.

Results

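The 44 interferon response genes described here were taken by gene symbol from a named list, the symbol being the part of each gene identifier that follows its Ensembl number, and all 44 were found among the 55450 genes of the files. They were measured by poly(A) RNA sequencing of primary mouse hepatocytes in 4 groups of 3 libraries. WT hepatocytes carried the floxed Cebpa allele (Cebpa fl/fl), and KO hepatocytes had this allele deleted (Cebpa{delta}Alb) by Cre recombinase driven by the Albumin promoter, which is active in hepatocytes. GFP hepatocytes received an adenovirus carrying green fluorescent protein (Ad-GFP) and OE hepatocytes an adenovirus carrying mouse Cebpa (Ad-m-Cebpa), so both of these cultures met a virus and neither WT nor KO is labelled as having done so. The study used male mice, and its floxed line was backcrossed to C57BL/6N. The age of the donors and the dose and duration of adenovirus for these libraries are not given in the sources used here. The labels call the libraries of a group biological replicates without saying whether they came from separate mice or cultures, so the p values below measure only the spread between these libraries. CEBPA is a transcription factor that maintains the differentiated state of hepatocytes, and the comparisons ask how its loss and its excess relate to gene expression.

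Interferon response genes are the genes that cells switch on when interferons, the cytokines of antiviral defence, bind their receptors. Type I and type III interferons signal through the kinases JAK1 and TYK2 to a complex that holds STAT2 and IRF9 and binds the interferon-stimulated response element (ISRE), while interferon gamma acts mainly through the gamma-activated site (GAS). Infected cells raise interferons after sensing viral nucleic acid with receptors such as RIG-I (Ddx58) and MDA5 (Ifih1), and hepatocytes respond to interferons although they are not the main source of them. Many of these genes are also held at a basal level without infection, and some, such as the class I antigen presentation genes, are expressed in nearly all cells.

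Promoters of these genes often held the ISRE letters. RefSeq promoter sequences (build GRCm38.p6, 250 bases before to 50 bases after each start) were matched by symbol to 31 of the 44 genes, with 34 promoters, and none was matched for Rtp4, Dhx58, Ifi27, Ifi27l2a, Ifi27l2b, Mx1, Mx2, Usp18, Ly6e, Oas2, Gvin1, Parp14 and Zbp1. The ISRE core (GAAA, any 2 bases, GAAA), searched on both strands as were the other motifs, stood in 18 of the 34 promoters (52.9%), against 3.44% of all 32851 promoters of the same length. The GAS letters TTCNNNGAA stood in 6 of 34 (17.6%) against 8.3%, and the C/EBP letters TTGCNNAA in 1 of 34 (2.94%, a promoter of Gbp3) against 10.8%. The motifs can overlap each other, promoters of neighbouring paralogs share sequence, and a match is a description of letters and not a binding site. The 4 promoters below, each given as the 250 bases before the start with the ISRE letters in capitals, were chosen because they hold the same element while their genes behaved differently in the data. Oas3 (GRCm38.p6, chr5:120777660-120777909, minus strand) and Rsad2 (chr12:26456453-26456702, minus strand) had lower levels in OE than in GFP, Gbp2 (chr3:142620413-142620662, plus strand) had higher levels, and Isg15 (chr4:156200819-156201068, minus strand), with 3 overlapping matches, did not pass the test.
Oas3: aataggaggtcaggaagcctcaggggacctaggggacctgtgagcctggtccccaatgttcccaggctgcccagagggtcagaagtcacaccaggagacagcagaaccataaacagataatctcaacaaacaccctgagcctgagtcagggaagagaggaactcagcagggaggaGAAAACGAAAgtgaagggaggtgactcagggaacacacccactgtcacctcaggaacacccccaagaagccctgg
Rsad2: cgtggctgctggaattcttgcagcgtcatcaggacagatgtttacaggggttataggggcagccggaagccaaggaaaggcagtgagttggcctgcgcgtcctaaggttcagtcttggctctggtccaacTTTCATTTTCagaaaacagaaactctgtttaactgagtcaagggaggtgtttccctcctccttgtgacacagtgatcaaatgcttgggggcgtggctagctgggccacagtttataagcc
Gbp2: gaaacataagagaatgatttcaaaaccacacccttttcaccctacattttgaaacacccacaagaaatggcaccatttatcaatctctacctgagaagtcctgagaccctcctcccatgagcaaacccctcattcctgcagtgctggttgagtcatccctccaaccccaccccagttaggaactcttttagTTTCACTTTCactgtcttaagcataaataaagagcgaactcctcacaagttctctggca
Isg15: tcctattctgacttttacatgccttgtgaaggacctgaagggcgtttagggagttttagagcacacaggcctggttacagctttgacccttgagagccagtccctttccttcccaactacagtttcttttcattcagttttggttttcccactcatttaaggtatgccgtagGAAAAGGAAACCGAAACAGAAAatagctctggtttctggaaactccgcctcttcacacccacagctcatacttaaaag
Counted from the start, the match nearest to it began at position -75 in Oas3, -120 in Rsad2, -59 in Gbp2 and -66 in Isg15. No ISRE letters were found in any of these windows for Ifit2, Oasl1, Oasl2, Cmpk2, Irf7, Irf9, Xaf1, Trim25, Ifi35, Ifi44, Psmb8, Psmb9 or Tap1.

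The libraries held 20160081 to 23304230 estimated counts each, and each detected 41 to 44 of the 44 genes. Levels are given as CPM (counts relative to library size) scaled by TMM within WT and KO and within GFP and OE, so that a WT value and a GFP value are on different scales except where a common scale is named, and TPM, which also correct for transcript length, are used to compare genes with one another. For the targeted gene, Cebpa, the 3 WT libraries gave 309, 229 and 290.3 CPM and the KO libraries 0.963, 0.257 and 0.164. GFP cultures gave 47.95, 50.6 and 54.3 and OE cultures 13292, 13652 and 14079. Within each experiment the groups thus lay on the side their labels give. Between the controls, Cebpa was lower in GFP than in WT (log2 fold change -3.77 ± 0.12 (SE), 13.6-fold, edgeR adjusted p = 3.14e-08 with TMM). Checked against 8 hepatocyte markers, the summed level was 101871 to 103044 CPM in WT and 113017 to 137338 in KO, but 23163 to 23748 in GFP and 10232 to 10681 in OE. Every one of the 8 was detected in every library. Alb made up most of each sum, and the others did not all follow it. In KO 4 of the 8 had a log2 fold change above 0 and 4 below. From GFP to OE 7 fell, while Cps1 rose from a mean of 235 to 767 CPM. As a share of all counts, the 44 genes made up 0.167% to 0.175% per WT library and 0.189% to 0.227% per KO library. The GFP libraries, at 0.362% to 0.394%, were the highest, and OE, at 0.206% to 0.211%, lay inside the KO range.

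Per length, a few genes carried most of the family's message. B2m, the light chain of class I antigen-presenting molecules, had the highest mean TPM, 2046 ± 136 in WT, 1790.0 ± 184 in KO, 3513 ± 76.4 in GFP and 1825 ± 77.7 in OE (SD, n = 3). Ly6e, a small membrane-anchored protein that restricts the entry of several viruses, came next with 193 ± 17.4, 576 ± 38.04, 1240.5 ± 25.2 and 175 ± 5.24 TPM in the same order. Bst2, or tetherin, which holds budding virions at the cell surface, followed with 172 ± 11.04, 191 ± 32.3, 457 ± 41.2 and 298 ± 5.16 TPM. Ly6e and Bst2 changed places between groups, with Ly6e above Bst2 in KO and GFP and below it in OE, while in WT their libraries overlapped. At the other end, Oas2 and Ifi27l2a had at most 0.29 CPM in every library and were tested in no comparison.

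**Figure D1:**
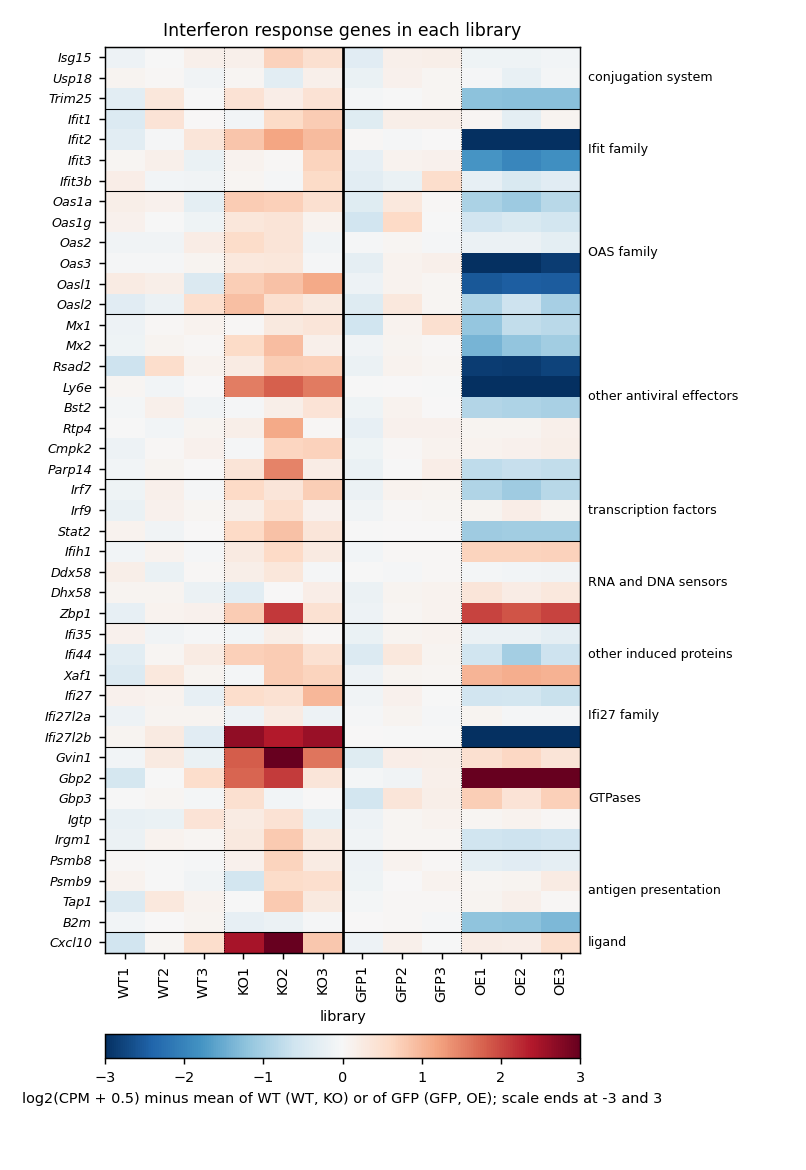
Level of each of the 44 genes (rows, grouped by role) in each of the 12 libraries (columns), as log2(CPM + 0.5) minus the mean of the 3 WT libraries for WT and KO and minus the mean of the 3 GFP libraries for GFP and OE. Red is higher and blue is lower, and the colour scale ends at -3 and 3. Ly6e and Ifi27l2b are red in all 3 KO libraries and blue in all 3 OE libraries, Gbp2 and Zbp1 are red in OE, and Usp18 is pale throughout, although its GFP and OE values (near 54.5 and 50.4 CPM) lie far above those of WT and KO (near 2.49 and 2.44 CPM).

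Deletion of Cebpa was compared first, as KO against WT. Ly6e, Ifi27l2b and Gvin1 rose, and no member fell, among the 40 genes with enough counts to test. The WT libraries held 120.1, 108 and 116 CPM of Ly6e and the KO libraries 334, 396 and 339. All KO libraries lay above all WT libraries, a 3.11-fold difference (log2 fold change 1.64 ± 0.11 (SE), adjusted p = 0.00157, edgeR quasi-likelihood test with Benjamini-Hochberg adjustment over all genes). Ifi27l2b, a small mitochondrial protein of the Ifi27 family, stood at 4.08, 4.77 and 2.91 CPM in WT and 26.8, 21.95 and 25.7 in KO. It too separated the groups, by 6.33-fold (log2 fold change 2.66 ± 0.19 (SE), adjusted p = 0.00157). Gvin1, a very large interferon-inducible GTPase, had 30.999, 39.5 and 28.4 CPM in WT and 117, 271 and 99.8 in KO, where 1 library, KO2, held more than the other two together (log2 fold change 2.30 ± 0.39 (SE), adjusted p = 0.0395). Its call was lost without any 1 WT library or KO1, with a stricter filter and in limma on TPM, with adjusted p values of up to 0.195, and its reads can be split with near-identical copies. These 3 calls were 7.5% of the 40 genes tested, against 1.71% of all 11846 genes (0.692% higher and 1.02% lower). DESeq2 called 11 members, against 5.26% of all genes.

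No other member passed the test. Over all 40 genes, the 3 called ones included, the log2 fold change was above 0 for 37, with a median of 0.54 against 0.01 for all genes, and the other 3 were Usp18, Dhx58 and B2m. The KO libraries lay wholly above the WT libraries for 18 of the 40, against 9.66% of all genes, and for none did they lie wholly below. An unadjusted p under 0.05 was reached by 18 of the 40, against 13.9% of all genes. Oasl1, an OAS-like protein that lacks the synthetase activity of its relatives, had 11.6, 11.1 and 7.15 CPM in WT and 16.5, 18.4 and 21.9 in KO (adjusted p = 0.095). The 3 transcription factors of the list did not pass either. Irf7, the factor that amplifies the type I response, had 19.4 ± 2.08 and 29.04 ± 3.72 CPM in WT and KO (SD, n = 3, log2 fold change 0.58 ± 0.13 (SE), adjusted p = 0.1). Stat2, a component of the ISRE-binding complex, had 69.05, 59.4 and 64.95 CPM in WT and 97.3, 119 and 83.1 in KO (log2 fold change 0.63 ± 0.15 (SE), adjusted p = 0.107). Its partner Irf9 had a log2 fold change of 0.28 ± 0.14 (adjusted p = 0.434). Cxcl10, a chemokine that draws T cells, had 0.733, 1.42 and 2.14 CPM in WT and 9.72, 15.1 and 2.71 in KO, as large a fold change as that of Ifi27l2b with a wider error (log2 fold change 2.66 ± 0.65 (SE), adjusted p = 0.123).

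The antiviral effectors that most define the family were low in both groups. Isg15, the ubiquitin-like modifier, had 2.403 ± 0.318 and 3.46 ± 0.737 CPM in WT and KO. Its protease Usp18 had 2.49 ± 0.199 and 2.44 ± 0.484 CPM, Rsad2, or viperin, had 4.24 ± 1.77 and 6.25 ± 1.204, and Ifit2 had 0.477 ± 0.2301 and 1.42 ± 0.253 (all SD, n = 3). Of these Ifit2 alone had all KO libraries above all WT libraries, with an adjusted p of 0.138. For B2m the log2 fold change was -0.15 ± 0.11, and for Bst2 0.19 ± 0.14, and neither was called (adjusted p = 0.587 and 0.576).

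The KO libraries were not alike, and their levels of marker genes of other liver cells differed as well. Of the 40 genes, 23 were highest in KO2, 12 in KO3 and 5 in KO1, where 34.2%, 36.2% and 29.6% of all genes were highest. The summed level of 13 macrophage markers was 11.4, 16.4 and 35.2 CPM in WT1, WT2 and WT3 and 46.8, 53.9 and 16.2 in KO1, KO2 and KO3, and that of 9 endothelial markers was 14.3, 20.9 and 25.4 and 38.5, 37.6 and 15.9. Not all markers followed these sums. Mpeg1 made up most of the macrophage sum in WT1 and WT2 (7.65 and 10.1 CPM). It was lower in every KO library than in every WT library (log2 fold change -1.07), while 10 of the 11 macrophage markers tested were above 0. Of 9 endothelial markers tested 7 were above 0, and Stab2 (-0.47) and Tek (-0.06) were below. No macrophage or endothelial marker was called. In the same libraries 9 stellate cell and fibroblast markers summed to 5.17, 4.64 and 10.2 CPM in WT and 21.4, 20.9 and 14.0 in KO. Most of this was Reln (3.75, 3.61 and 5.73 in WT and 15.6, 15.3 and 10.4 in KO), the 1 called higher in KO. The 6 cholangiocyte markers summed to 4.81, 5.801 and 3.89 in WT and 10.6, 9.87 and 11.2 in KO. Nearly all of this was Pkhd1 (4.81, 5.80 and 3.72 in WT and 10.1, 9.36 and 11.1 in KO). Pkhd1 was called higher and was the only 1 of the 6 with enough counts to test. Markers of T and NK cells, B cells, plasmacytoid dendritic cells and neutrophils summed to at most 2.66 CPM in any of the 6 libraries, and Siglech, Cd3e and Ly6g stood at or near 0. The part of the other cell types in the KO values was not tested, and in such bulk samples fewer cells of a type and less RNA per cell cannot be told apart. In KO3 the macrophage and endothelial sums fell within the WT range, and the stellate cell and cholangiocyte sums lay above it. This library had 339 CPM of Ly6e and 25.7 of Ifi27l2b. Its Cxcl10 (2.71 CPM), Gbp2 (1.19) and Zbp1 (2.42) were the lowest of the 3 KO libraries. Without KO3, 6 members were called against 3.28% of all genes, and Cxcl10, Stat2 and Gbp2 were the additions.

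The Cebpa adenovirus was compared next with the GFP adenovirus, and here most of the family changed. Of 41 genes tested, 22 fell and 8 rose, in an experiment where 86.6% of all 14889 genes passed the same test (42.7% lower and 43.9% higher). A call alone therefore says little about a member, and the sizes are given with it. Falls of more than 2-fold were found for 13 of the 41 genes, against 18.5% of all genes, and rises of more than 2-fold for 3, against 23.5%. The median log2 fold change of the 41 was -0.60 against 0.01 for all genes. The balance depended on the scaling, since scaling by library totals moved the median of all genes to 0.15 and gave 20 lower and 14 higher members (38.1% and 48.2% of all genes), and limma on log2(TPM + 1) moved it to 0.27 and gave 16 and 15 (29.6% and 51.3%). Of the 30 genes called, Ifi35 and Psmb8, whose falls were small (-0.21 and -0.31), changed sign in limma and the other 28 kept their direction under each scaling that gave them a value (Oas3 was below the TPM minimum of the filtered limma fits).

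Antiviral effectors were among the members that fell furthest. Ly6e had 677, 692 and 681 CPM in GFP and 79.7, 79.5 and 75.1 in OE, with all OE libraries near one another and far under GFP, an 8.75-fold difference (log2 fold change -3.13 ± 0.03 (SE), adjusted p = 1.08e-17). Ifi27l2b had 39.5, 38.4 and 38.9 CPM in GFP and 3.71, 3.91 and 3.24 in OE, 10.7-fold lower (log2 fold change -3.42 ± 0.08 (SE), adjusted p = 1.16e-14). These are the 2 genes called in both comparisons in opposite directions. Rsad2, which makes a chain-terminating nucleotide, had 76.9, 93.3 and 91.1 CPM in GFP and 11.6, 11.5 and 12.3 in OE (log2 fold change -2.89 ± 0.08 (SE), adjusted p = 7.41e-14). Its neighbour Cmpk2, a nucleotide kinase that supplies the substrate of Rsad2, had 26.98, 30.2 and 31.8 CPM in GFP and 31.7, 32.4 and 33.5 in OE. These ranges overlap, and Cmpk2 was not called (log2 fold change 0.13 ± 0.06 (SE), adjusted p = 0.0604), although the pair lies 12752 bases apart on chromosome 12 in opposite orientation. Cmpk2 did pass, as higher in OE, with library totals and in 8 other alternatives, with log2 fold changes of at most 0.42.

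Within the gene families of the list the members differed. The 4 Ifit genes, whose products bind foreign RNA, lie side by side on chromosome 19 in the order Ifit2, Ifit3, Ifit3b and Ifit1, and their log2 fold changes in OE against GFP, -3.67, -2.19, -0.72 and -0.07, followed that order, the first 2 passing the test and the last 2 not. Ifit2 had 41.6, 39.9 and 41.2 CPM in GFP and 3.59, 1.98 and 4.04 in OE, and Ifit1 had 6.76, 10.2 and 10.1 and 9.29, 7.14 and 9.35. The first pair of groups did not overlap and the second did. Ifit3 and Ifit3b are near-identical copies whose reads RSEM divides between them, so the split between those 2 is uncertain. Of the OAS genes, which make the second messenger that activates RNase L or resemble those that do, all 5 tested fell, where 42.7% of all genes did. Oas3 had 3.88, 5.22 and 5.39 CPM in GFP and 0.0413, 0.0449 and 0.235 in OE (log2 fold change -5.47 ± 0.37 (SE), adjusted p = 3.27e-09), and Oasl1 had 50.5, 60.9 and 58.4 and 9.29, 9.704 and 9.54 (log2 fold change -2.57 ± 0.08 (SE), adjusted p = 2.53e-13). Oas1a, Oasl2 and Oas1g fell by 1.05, 1.07 and 0.80 on the log2 scale, Oas1g with overlapping groups and reads shared with Oas1a.

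Some regulators and antigen presentation genes fell as well. Stat2 went from 84.6, 85.3 and 85.3 CPM to 40.5, 41.3 and 41.3 (log2 fold change -1.05 ± 0.04 (SE), adjusted p = 1.2e-12) and Irf7 from 49.8 ± 5.104 to 25.8 ± 2.15 CPM (log2 fold change -0.95 ± 0.08 (SE), adjusted p = 2.49e-08), while Irf9 was not called (0.11 ± 0.06, adjusted p = 0.0722). Trim25, the ubiquitin ligase that activates RIG-I, had 201, 209.7 and 220.1 CPM in GFP and 88.97, 87.5 and 87.8 in OE (log2 fold change -1.26 ± 0.03 (SE), adjusted p = 1.08e-13). B2m had 1618, 1648 and 1583 CPM in GFP and 696, 692 and 632 in OE, 2.402-fold lower (log2 fold change -1.26 ± 0.04 (SE), adjusted p = 5.01e-13). The immunoproteasome subunit Psmb8 fell slightly, and its neighbours Psmb9 and the peptide transporter Tap1 were not called (0.13 ± 0.08 and 0.09 ± 0.04). Bst2, Mx2, Parp14, Ifi44, Ifi27 and Irgm1 fell with log2 fold changes between -1.42 and -0.60. For Isg15 and Usp18 the groups overlapped, with 16.001, 22.7 and 23.01 CPM of Isg15 in GFP and 18.7, 18.6 and 19.2 in OE and 47.1, 59.5 and 56.8 and 53.2, 46.05 and 51.9 of Usp18. Neither was called (-0.13 ± 0.11 and -0.11 ± 0.08, adjusted p = 0.264 and 0.175). Rtp4, Ddx58 and Igtp were not called either, with log2 fold changes of 0.10, -0.08 and 0.06.

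A smaller group rose with the Cebpa adenovirus. Gbp2, a guanylate-binding GTPase that attacks the vacuoles of intracellular pathogens, had 5.47, 5.26 and 6.32 CPM in GFP and 69.8, 69.3 and 66.8 in OE, 12.1-fold higher (log2 fold change 3.60 ± 0.07 (SE), adjusted p = 1.51e-15). Zbp1, a sensor of Z-form nucleic acid that can trigger necroptosis, had 7.503, 8.74 and 9.14 CPM in GFP and 35.8, 32.6 and 35.7 in OE (log2 fold change 2.04 ± 0.08 (SE), adjusted p = 4.36e-12), and Xaf1, a pro-apoptotic interferon target, had 13.2, 15.7 and 15.6 and 30.7, 31.9 and 31.01 (log2 fold change 1.07 ± 0.07 (SE), adjusted p = 2.11e-09). For each of these the groups were far apart. Ifih1, Gbp3, Gvin1, Cxcl10 and Dhx58 rose by less, with log2 fold changes of 0.67, 0.62, 0.49, 0.31 and 0.30. Of the 4 nucleic acid sensors 3 rose and none fell, where 43.9% of all genes rose and 42.7% fell. Gvin1 was called as higher in both comparisons, and its call in OE was lost in the fit of all 12 libraries. Marker lists differed between these cultures as well: S100a8 and S100a9, calcium-binding proteins abundant in neutrophils, stood at 0 counts in GFP and at 224 and 362 CPM in OE, while the neutrophil surface marker Ly6g stood at 0 in both. The 13 macrophage markers summed to 167 to 181 CPM in GFP and 267 to 299 in OE, nearly all of it Cd68 and Mpeg1, with the Kupffer cell markers Adgre1 and Clec4f at 0 in GFP and at most 0.188 CPM in OE. Stellate cell and fibroblast markers summed to 12.03 to 14.02 CPM in GFP and 39.3 to 39.9 in OE. Endothelial markers summed to 51.5 to 54.9 and 37.1 to 39.6, and cholangiocyte markers to 16.9 to 19.3 and 23.2 to 24.1. These sums hide members that moved in opposite directions. Cd68 fell (log2 fold change -0.26) while Mpeg1 rose (2.04). Of 4 stellate cell and fibroblast markers tested 2 were called higher and 1, Acta2, lower. Of 6 cholangiocyte markers 2 were called higher and 3, Krt19 among them, lower. The part of these marker genes in the member values was not tested.

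**Figure D2:**
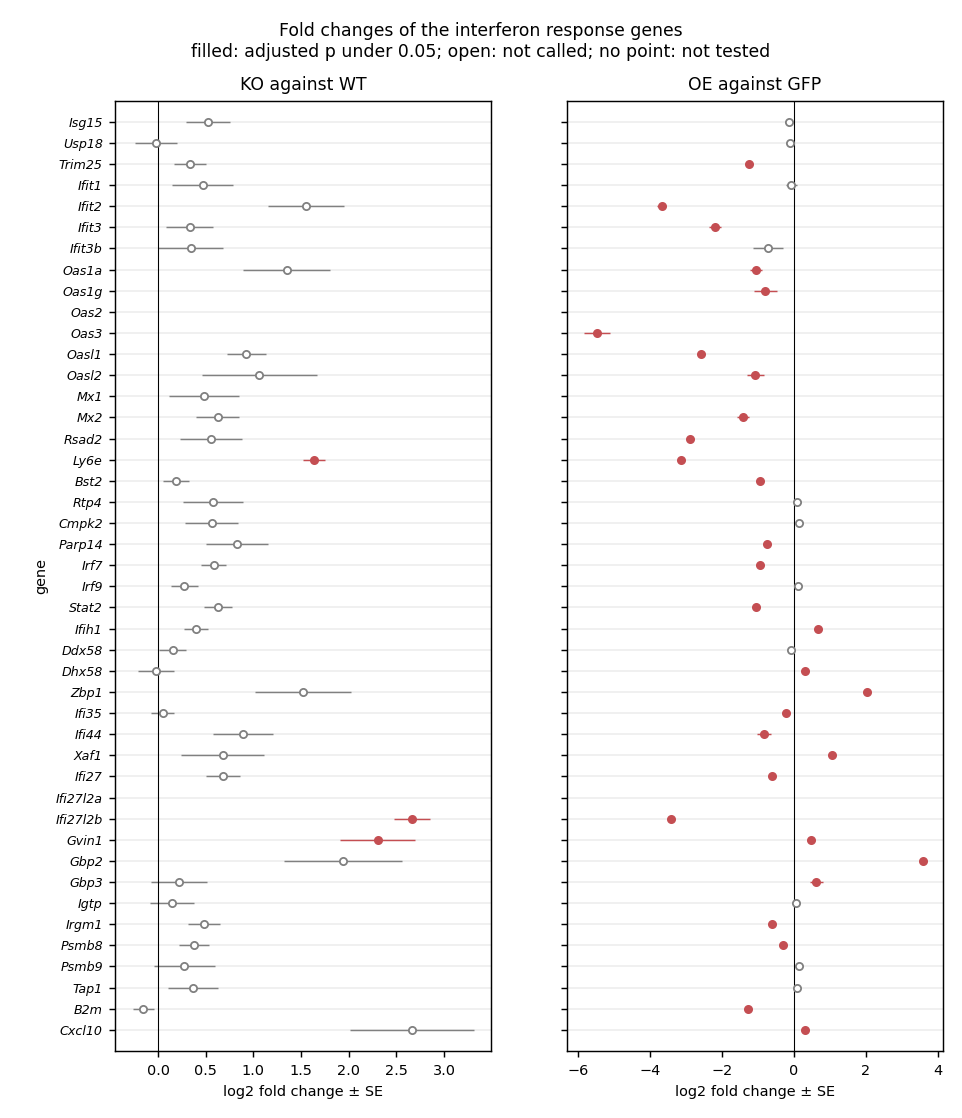
Log2 fold change with its standard error (x axis) for each of the 44 genes (y axis, grouped by role as in the heat map) in KO against WT and OE against GFP, with separate x axes. Filled points passed an adjusted p of 0.05, open points did not, and genes not tested have no point. In KO against WT 37 of 40 points lie above 0 and 3 are filled, and in OE against GFP 22 filled points lie below 0 and 8 above, from -5.47 for Oas3 to 3.60 for Gbp2.

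Transcript length entered some of these values. RSEM reports for each gene an effective length, the mean over its isoforms weighted by their abundance, and a member whose isoforms shift changes its length with them. For Trim25 it was 5323 bases on average in GFP (5263 to 5366) and 3715 in OE (3676 to 3747). In TPM, which divide by that length, Trim25 went from 57.9 ± 2.56 to 43.4 ± 0.744, and its log2 fold change was -0.41 in limma on log2(TPM + 1) against -1.26 by counts. Xaf1 differed the other way, with 709.6 bases in GFP (668 to 783) and 1069 in OE (1034 to 1109). The length ranges of GFP and OE did not overlap for either gene. Which isoforms were used was not tested.

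The 2 effects were then tested against each other, as the change in OE against GFP less the change in KO against WT, in 1 fit of all 12 libraries. The difference was called for 24 of 42 members, 23 of them lower and 1 higher, against 54.1% of all 15326 genes (28.1% lower and 25.9% higher). Of the 22 of these 24 with both effects tested separately, 18 were above 0 in KO and below 0 in OE. Selection by the difference favours such opposite signs, and the share of all genes with them was not counted. Ly6e had the lowest p, with a difference of -4.74 ± 0.11 (SE, log2, adjusted p = 4.24e-10), followed by Ifi27l2b (-6.06 ± 0.22), Oasl1 (-3.48 ± 0.24), Ifit2 (-5.19 ± 0.42) and Stat2 (-1.65 ± 0.14). Only Ly6e and Ifi27l2b among these were called in both comparisons, so for the other 3 the difference does not show a change in KO. Gbp2 was the 1 member called with a difference above 0 (1.71 ± 0.61, adjusted p = 0.0328). It was lost without WT2, WT3, GFP1, GFP2 or any OE library, with adjusted p values of up to 0.195.

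**Figure D3:**
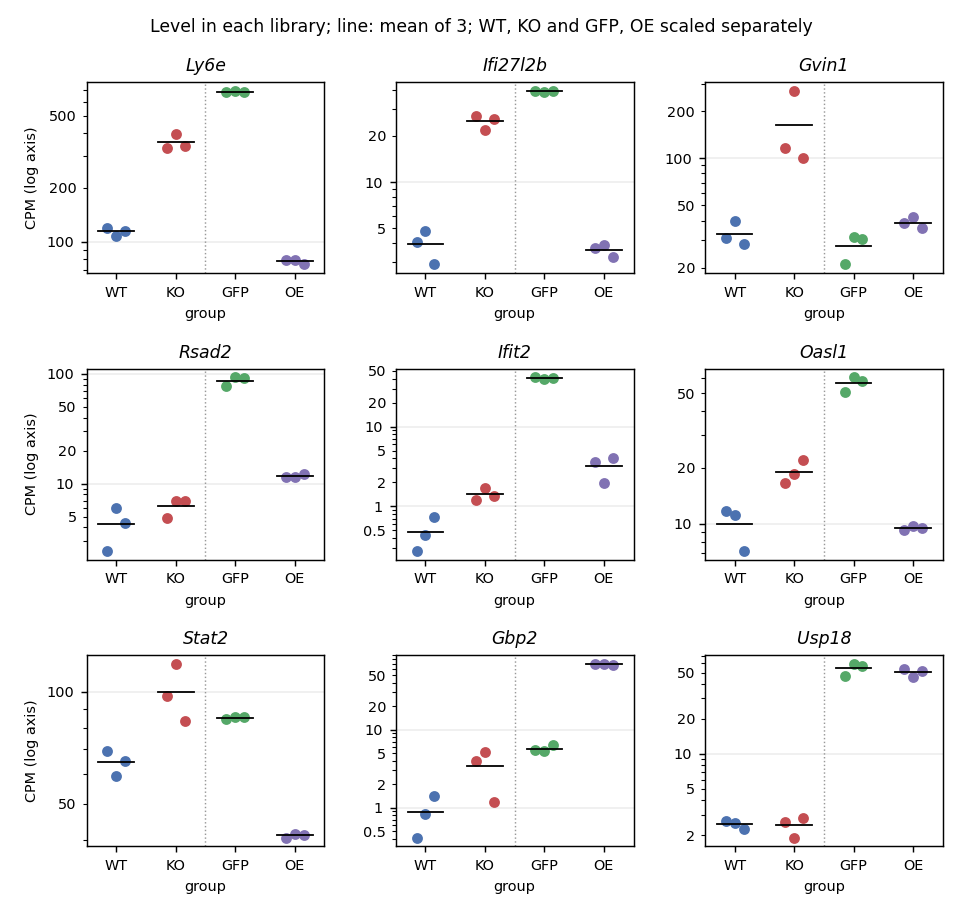
CPM (y axis, log scale, a separate range for each panel) of 9 members in each library of the 4 groups (x axis), with the mean of 3 as a line. WT and KO were scaled together and GFP and OE together, so levels compare across the dotted line only roughly. Ly6e runs from 115 in WT to 356 in KO and from 683 in GFP to 78.1 in OE, Gbp2 rises in OE to 68.6, and Usp18 differs between the experiments while the groups within each experiment overlap.

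The control groups of both experiments were set side by side, as GFP against WT, to give the family's level in each control. The labels give the floxed genotype for WT only and name neither the genotype, preparation nor culture time of the GFP hepatocytes. The adenovirus and any such difference therefore cannot be told apart, and the 6 libraries are those of the comparisons above. Cebpa itself was lower in GFP than in WT (log2 fold change -3.77 with TMM), and its part in the member values was not tested. With TMM scaling 26 of 42 members were higher and 7 lower in GFP, where 83.3% of all 13760 genes were called (45% higher and 38.4% lower). The scaling set part of this, because the median log2 fold change of all genes was 0.13 with TMM and 1.37 with library totals, and with library totals 37 members were higher and none lower, beside 75.7% and 15.1% of all genes (90.7% called). The change of scaling moves all genes by nearly the same amount, and with TMM 28 of the 42 members lay above the median of all genes. On the common scale of these 6 libraries Ifit2 had 0.428, 0.677 and 1.13 CPM in WT and 25.8, 24.8 and 25.5 in GFP (log2 fold change 5.07 ± 0.20 (SE), adjusted p = 8.6e-08). Usp18 had 4.14, 3.996 and 3.52 CPM in WT and 29.2, 36.998 and 35.2 in GFP (log2 fold change 3.12 ± 0.13 (SE), adjusted p = 1.14e-07), and Cmpk2 had 2.85, 3.39 and 3.66 and 16.7, 18.8 and 19.7 (log2 fold change 2.48 ± 0.12 (SE), adjusted p = 3.94e-07). For all 3 the groups were far apart (with library totals the log2 fold changes were 6.30, 4.36 and 3.71). Ly6e was also called higher in GFP (1.24 ± 0.06). Markers of cell types moved in this comparison too, and all 8 hepatocyte markers were called lower in GFP. The macrophage markers Cd68 and Csf1r had log2 fold changes of 8.08 and -3.68 with TMM. The stellate cell marker Acta2 and the cholangiocyte marker Krt19 had 8.79 and 6.12, from 0 and 1 counts in WT. Dcn and Reln, the other stellate cell markers tested, were called lower with TMM (-1.33 and -0.85). Of 5 cholangiocyte markers tested 4 were called higher and 1, Pkhd1, lower with TMM (-0.42). For Reln and Pkhd1 the summed unscaled counts were higher in GFP (370 and 547) than in WT (300 and 327), so no direction is drawn for them. The part of the cell type markers in the member values was not tested.

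Other members near the limit of detection in WT were detected in every GFP library. Oas3 had 1 count in the 3 WT libraries together and 294 in GFP, a ratio of 131 on the TMM scale with a 95% counting interval of 23.4 to 5206, and Oas1g had 3 and 128, a ratio of 19.1 (6.38 to 93.7; these intervals cover counting error only). Oas1a, Rsad2, Cxcl10, Xaf1, Ifi27l2b and Isg15 were higher by 3.94, 3.02, 2.84, 2.77, 1.98 and 1.76 on the log2 scale with TMM. The members with lower calls were Stat2, B2m, Ifi27, Mx2, Irf9, Gvin1 and Ifit3b. Stat2 had 108, 93.7 and 101 CPM in WT and 52.4, 53.1 and 52.9 in GFP (log2 fold change -0.93 ± 0.06 (SE), adjusted p = 2.3e-06), but with library totals its log2 fold change was 0.30. The sign also turned with library totals for B2m, Ifi27, Mx2 and Irf9, so no direction is drawn for these 5, while Gvin1 and Ifit3b stayed below 0 (-0.34 and -0.45) without being called there. The GFP libraries are shared with OE against GFP, so the values are only set side by side. The log2 fold changes in GFP against WT and in OE against GFP were 3.02 and -2.89 for Rsad2, 3.12 and -0.11 for Usp18 (not called in OE), 2.77 and 1.07 for Xaf1, and 1.34 and 3.60 for Gbp2.

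**Figure D4:**
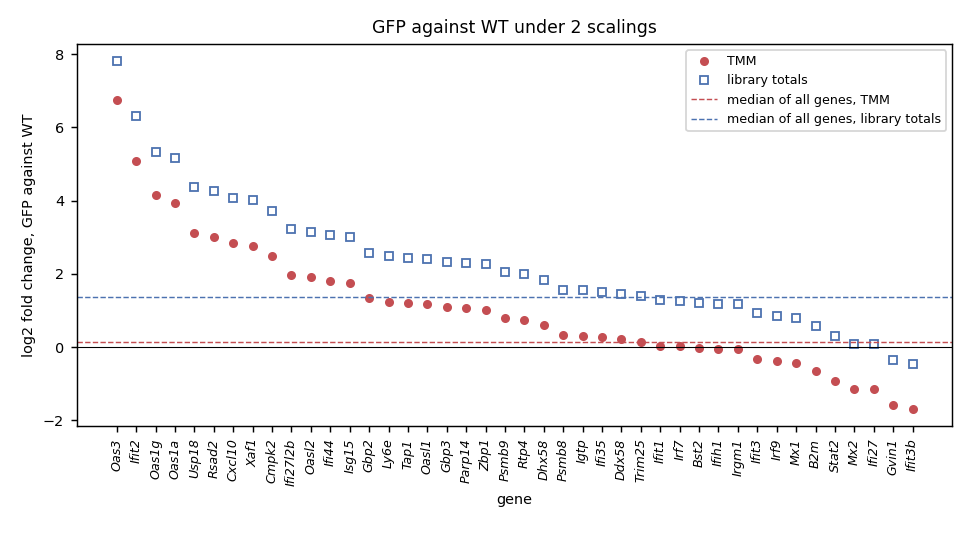
Log2 fold change in GFP against WT (y axis) of the 42 members tested (x axis, ordered by the TMM value), with TMM scaling (filled circles) and with library totals (open squares). Dashed lines are the medians of all genes under each scaling, 0.13 and 1.37. The squares lie above the circles by a nearly constant amount, and 28 of the 42 circles lie above their median line.

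The genes around the family in the pathway were counted from lists of their ligands, receptors, factors and inhibitors. Of 20 interferon genes, 16 had no count in any of the 12 libraries, Ifnb1 and all 12 listed interferon alpha genes among them, which allows at most 3 counts per library or 0.149 CPM at the lowest depth. The remaining 4 (Ifnab, Ifnk, Ifnz and Ifng) had at most 13 counts over all libraries, and none of the 20 could be tested. No gene of the other lists was called in KO against WT (0 of 67 tested by edgeR, against 1.71% of all genes), and 18 of the 67 had an unadjusted p under 0.05, against 13.9% of all genes, with Jak1, Ifnar2, Irf1, Tlr3 and Myd88 at adjusted p values of 0.284, 0.332, 0.362, 0.145 and 0.26. In OE against GFP 41 rose and 30 fell of 78 tested (52.6% and 38.5%, against 43.9% and 42.7% of all genes). Of the 9 receptors and kinases 4 rose and 4 fell. Il10rb, a chain of the type III interferon receptor, had 36.5, 36.2 and 35.7 CPM in GFP and 246, 244 and 227 in OE (log2 fold change 2.72 ± 0.04 (SE), adjusted p = 1.21e-16), and Ifngr1, the ligand-binding chain for interferon gamma, had 195, 198 and 187 and 77.9, 80.3 and 77.96 (log2 fold change -1.30 ± 0.03 (SE), adjusted p = 2.3e-14). Ifnlr1, the specific chain of the type III receptor, also rose (2.30), and Ifnar1, a type I chain, was not called (0.04 ± 0.03).

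In the smaller lists, counts are read against the 43.9% of all genes that rose and the 42.7% that fell. Among the other transcription factors 4 of 6 rose. Irf2, which competes at interferon response elements, had 43.5, 42.5 and 46.5 CPM in GFP and 96.8, 93.8 and 95.7 in OE (log2 fold change 1.11 ± 0.04 (SE), adjusted p = 2.14e-12), and Irf8, a myeloid member of the IRF family, had 5.81, 5.78 and 6.26 and 26.2, 24.1 and 28.7 (log2 fold change 2.15 ± 0.09 (SE), adjusted p = 7.1e-12). Of 11 sensors and adaptors tested 8 rose and 2 fell. Tlr3, the receptor for double-stranded RNA, had 17.3, 17.8 and 17.4 CPM in GFP and 135, 125 and 138 in OE (log2 fold change 2.92 ± 0.05 (SE), adjusted p = 5.29e-16). Tlr7, the receptor for single-stranded RNA, went from 0.199, 0.141 and 0.103 to 25.01, 24.6 and 23.97 CPM (log2 fold change 7.32 ± 0.15 (SE), adjusted p = 5.6e-15). Of 8 inhibitors 5 rose and 1 fell, with Pias1 at 30.8 ± 1.56 and 63.2 ± 2.13 CPM in GFP and OE and the phosphatase Ptpn2 at 41.2 ± 1.89 and 72.9 ± 2.85 (SD, n = 3).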

How the data were processed

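Poly(A) RNA libraries (stranded TruSeq) of 12 hepatocyte cultures or isolates, 3 per group, were sequenced. Per the labels, the authors trimmed reads with Trimmomatic 0.36, aligned them to mm10 with STAR 2.5.1 and estimated gene abundance in RSEM 1.2.22. The submitters' processing notes also name Picard 1.84 and DESeq2. The deposited tables give, for each gene, expected counts (not normalized), TPM as scaled by the authors to transcript length and library, and an effective length. Sample groups came from the labels. The 44 members and all other lists were chosen with earlier results of these data known.

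Here expected counts were rounded to whole numbers, genes were filtered with filterByExpr (minimum count 10, minimum total 15), scaled by TMM and tested with edgeR 4.0.16 (quasi-likelihood F test, R 4.3.3), each comparison on its own 6 libraries and the difference of effects on all 12. Benjamini-Hochberg adjustment ran over all genes tested, and an adjusted p under 0.05 is a call. Standard errors are the size of the log2 fold change over the root of F. Alternatives were other size factors, library totals, DESeq2 1.42.0, limma 3.58.1 on log2(TPM + 1) or log2(TPM + 0.1), other filters, one fit of all 12 libraries, blocking on replicate number and omission of each library in turn. The test was also run on simulated counts in which few genes changed, as many up as down. Such counts cannot check the scaling in comparisons where most genes were called. Libraries held 20160081 to 23304230 counts, so that 3 counts, the limit used for a gene at 0, are 0.129 to 0.149 CPM. Replicates differed by more than sampling noise (chi-square per degree of freedom 2.68 to 128), so each library counted as 1 replicate. Values per library are given for members called in KO against WT, the 8, 5 and 5 with the lowest p in OE against GFP, GFP against WT and the difference, the 4 with the lowest p in each comparison, the 3 of highest TPM, and for others where a result turns on them. Of the pathway lists, the 2 genes of lowest p in KO against WT and OE against GFP are named, and any other was chosen after its values were seen; a gene that this rule would name is not reported here. Mb21d1 was matched as Cgas through its RefSeq synonym. Coordinates and promoters are GRCm38 (mm10). Reads shared by near-identical genes (Ifit3 and Ifit3b, Oas1a and Oas1g, the Ifi27 family, Gbp genes, Gvin1) were divided by RSEM.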

Additional observations from a re-analysis of the deposited data

Results flagged for a closer look

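The effect of the Cebpa adenovirus (OE against GFP) less the effect of the deletion (KO against WT) differed from 0 in edgeR's test of the interaction for 24 members, with adjusted p values from 4.24e-10 to 0.0328, against 54.1% of all genes. All values are differences of log2 fold changes, from 3 libraries in each of the 4 groups.

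Among the genes listed as antiviral effectors the difference was -4.74 for Ly6e, -3.42 for Rsad2 and -2.75 for Mx1. It was -2.01 for Mx2, which is annotated as a polymorphic pseudogene, -1.54 for Parp14 and -1.10 for Bst2. In the Ifi27 family it was -6.06 for Ifi27l2b and -1.26 for Ifi27. In the OAS family it was -7.85 for Oas3, -3.48 for Oasl1, -2.38 for Oas1a and -2.10 for Oasl2. The Ifit genes gave -5.19 for Ifit2 and -2.50 for Ifit3. Of the regulators, Stat2 had -1.65, Irf7 -1.51 and Trim25 -1.57. The antigen presentation genes B2m and Psmb8 had -1.09 and -0.66, Ifi44 had -1.70, and the GTPases Irgm1 and Gvin1 had -1.05 and -1.78. Cxcl10 had -2.30, with log2 fold changes above 0 in both comparisons (2.66 in KO and 0.31 in OE), as had Gvin1 (2.30 and 0.49). Gbp2, with 1.71, was the single call above 0.

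Oas3 was too low to test in KO against WT (at most 0.154 CPM in any library), and Mx1 was too low to test in OE against GFP. Of the 24, Ly6e and Ifi27l2b were called in opposite directions in the separate comparisons, and Gvin1 was called as higher in both.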

How the results depend on the processing

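In KO against WT the number of members called was 3, and it was 11 in DESeq2 (623 of all genes against 203 in edgeR), 5 with no filter, 13 in the fit of all 12 libraries (1205 of all genes) and 2 to 6 leaving out 1 library, where Ly6e and Ifi27l2b were called in every fit. The cause was not tested. In OE against GFP 26 to 34 were called, in GFP against WT 24 to 37, and the difference of effects gave 18 to 27. Leaving out 1 library gave 29 to 33, 31 to 33 and 23 to 27 in the same order. Replicate numbers are shared by the groups, and the sample titles do not say whether they pair libraries. Correlations of deviations between same-numbered libraries were -0.393 to 0.022 in KO against WT and -0.073 to 0.0444 in OE against GFP. Differently numbered KO and WT libraries gave -0.284 to 0.272, so these values cannot show or exclude pairing. With the replicate block 3, 33, 33 and 24 members were called in the 3 comparisons and the difference. In KO against WT 85 of all genes were called with it, against 203 without it. Signs turned in GFP against WT with library totals and the 3 limma fits for B2m (0.58, 0.78, 0.78 and 0.78), Stat2 (0.30, 0.27, 0.27 and 0.27) and Bst2 (1.21, 1.40, 1.40 and 1.40). Bst2 had 0.066 with no filter and 0.00011 with the stricter one, and -0.092 to 0.054 leaving out 1 library, and Trim25 had -0.0077 to 0.33. Usp18 had 0.026, 0.19, 0.19 and 0.19 in OE against GFP and -0.14 to 0.13 in KO against WT leaving out 1 library. With the plus strand alone 10 member promoters held ISRE letters, 6 GAS and 0 C/EBP. Oas2 and Ifi27l2a, and in KO against WT also Oas3 and Oas1g, had too few counts at this depth to be tested.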

Other observations

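Of 31 other interferon-inducible effectors tested in OE against GFP, 16 rose and 13 fell (51.6% and 41.9%), near the shares of all genes (43.9% and 42.7%). Slfn2, a schlafen protein of lymphoid and myeloid cells, went from 0.298, 0.235 and 0.154 CPM in GFP to 65.9, 65.4 and 58.9 in OE (log2 fold change 8.07 ± 0.13 (SE), adjusted p = 4.37e-16), and Lgals9, a galectin, from 263, 279.8 and 274 to 69.8, 65.1 and 65.98 (log2 fold change -2.02 ± 0.04 (SE), adjusted p = 1.09e-15). The immunity-related GTPases Tgtp1 and Tgtp2 are close copies of each other, and their reads may be divided wrongly: Tgtp1 had 32.2, 41.8 and 41.7 CPM in GFP and 5.36, 3.86 and 5.64 in OE, and Tgtp2 had 0.596, 0.282 and 0 and 1.61, 1.53 and 1.64. In KO against WT neither passed (adjusted p = 0.13 and 0.123).

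The antigen presentation genes outside the members were all called in OE against GFP, 9 of 13 lower and 4 higher, where 86.6% of all genes were called (42.7% lower and 43.9% higher). H2-T23, a nonclassical class I gene, had 102, 108 and 99.5 CPM in GFP and 37.6, 36.3 and 34.5 in OE (log2 fold change -1.51 ± 0.04 (SE), adjusted p = 1.97e-13), and Tapbp, or tapasin, had 238, 243 and 235 and 112, 108 and 101 (log2 fold change -1.16 ± 0.04 (SE), adjusted p = 3.58e-13). None of the 13 was called in KO against WT by edgeR, where 1.71% of all genes were, and 1 had an unadjusted p under 0.05, against 13.9% of all genes, with H2-Q4 and Psmb10 at adjusted p values of 0.349 and 0.362.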
